A study of Homo sapiens with 9 samples.

Results

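EVI1 sh#87 was set against EVI1 sh#16 in HNT34 cells, a pair of short hairpin RNAs (shRNAs) that target the same gene. The comparison uses 6 of the 9 RNA-seq libraries of the study, 3 labelled sh#87 and 3 labelled sh#16, and the 3 libraries of a non-targeting shRNA (NT) serve only as a reference level. HNT34 is an established human acute myeloid leukemia (AML) line that carries a translocation between both copies of chromosome 3 and expresses EVI1 at a high level. All 3 groups received a lentiviral pZIP vector with an EF1a promoter, a red fluorescent protein and a puromycin resistance gene, were selected for it and were harvested on day 3 after selection. The groups thus share the vector and the selection and differ in the hairpin. Libraries were made from polyadenylated RNA with a strand-specific kit. One label field gives the number 18 for the hairpin of the sh#87 libraries, and their titles, which give 87, were followed. Separate cultures are not named for the replicates, so the p-values measure only the spread between libraries, which may be technical. In these libraries each hairpin gives 1 depth of knockdown, in 1 cell line, so the identity of the hairpin and the depth of the knockdown cannot be told apart.

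EVI1 is a zinc finger transcription factor encoded by MECOM. In the normal bone marrow it is needed by blood stem cells, and in this type of leukemia it is switched on by an enhancer that normally serves GATA2. It binds corepressors and chromatin enzymes and is best known for holding cells in an immature state. Replicates lay close together within each knockdown, with a biological coefficient of variation of 3.75% for sh#16 and 6.97% for sh#87, against 24.9% for NT. Depth ran from 17096170 to 43502389 counts in sh#16, from 18310242 to 22758610 in sh#87 and from 26966189 to 31268456 in NT. Mitochondrially encoded genes took 2.69% to 2.88% of the counts in sh#16, 4.62% to 5.97% in sh#87 and 4.69% to 15.9% in NT. Levels are given in CPM, the count divided by the TMM-scaled library size and multiplied by 1000000, and 3 counts, the detection limit used, equal 0.0648 to 0.164 CPM in the knockdown libraries. Of the markers listed for this myeloid line, CD33 was measured at 37.1 to 39.3 CPM in sh#16 and 33.1 to 36.2 CPM in sh#87, CEBPA at 69.3 to 78.1 CPM and 46.6 to 53.9 CPM, and PTPRC at 137 to 148 CPM and 96.4 to 103 CPM. ANPEP was at 278 to 288 CPM in sh#16 and 137 to 143 CPM in sh#87. SPI1 was at 18.3 to 19.1 CPM in sh#16 and 8.80 to 11.2 CPM in sh#87. By edgeR's test ANPEP and SPI1 were called lower with sh#87 (log2 difference -1.03 and -0.93, adjusted p = 0.000367 and 0.00139). CEBPA was not called by this test (adjusted p = 0.145). MPO was not in the table. The 4 T and NK cell markers in the table, of 10 listed, summed to 7.80 to 8.47 CPM in sh#16, 4.78 to 5.32 CPM in sh#87 and 20.3 to 22.7 CPM in NT. The 4 B cell markers of 6 summed to 11.8 to 13.6, 8.61 to 9.65 and 42.0 to 67.8 CPM, respectively. None of these 8 markers was called by edgeR's test, although 2 of the T and NK cell markers and 1 of the B cell markers had an unadjusted p under 0.05, DESeq2 called 0 and 1 of them, limma-voom called 0 of either, and the 6 knockdown libraries alone gave 3 and 1, all lower with sh#87. The 4 epithelial and stromal markers of 10 summed to 119 to 126 CPM in sh#16 and 100 to 107 CPM in sh#87, most of it KRT18, and KRT18 was the member called (lower with sh#87, log2 difference -0.44, call lost in 6 of 20 alternative settings, median of the list 0.02). Because these are bulk samples, fewer cells of a type and less RNA per cell cannot be told apart.

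The targeted gene was lower with both hairpins and lowest with sh#87. MECOM (chr3:169083507-169663712 on GRCh38.p14) was measured at 145, 143 and 145 CPM in the sh#16 libraries and at 109, 107 and 106 CPM in the sh#87 libraries. In NT it was 571, 504 and 440 CPM. The 3 groups did not overlap, as was the case between the knockdowns for 10666 of the 16312 genes tested (65.4%), of which 5069 were higher (31.1%) and 5597 lower (34.3%) with sh#87. Relative to the NT mean, 28.6% of the MECOM level was left with sh#16 and 21.3% with sh#87, and the sh#87 mean was 74.3% of the sh#16 mean. The log2 difference, given throughout as sh#87 minus sh#16, was -0.43 (SE 0.09, adjusted p = 0.00661 by edgeR's quasi-likelihood test with Benjamini-Hochberg adjustment). An exact permutation test of 3 libraries against 3 gave a 2-sided p of 0.1, the smallest that this design allows. Leaving out any 1 of the sh#16 or sh#87 libraries ended the edgeR call, with an adjusted p of up to 0.0299, and so did leaving out NT replicate 2.

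Which genes separate the knockdowns was asked in a fit of all 9 libraries. Of 16312 genes tested, 74 (0.454%) had an absolute log2 difference of at least 2 at an adjusted p of at most 0.01, which defines a differentially expressed gene (DEG) here. Among these, 47 (0.288%) were higher and 27 (0.166%) were lower with sh#87. At the same adjusted p without a fold threshold, 2890 genes (17.7%) differed, of which 1353 (8.29%) were higher and 1537 (9.42%) were lower. These shares are the background for the gene lists, whose members are called higher or lower by the adjusted p alone. The median log2 difference of all genes was -0.02. The variable NT libraries raised the spread shared by this fit: with the 6 knockdown libraries alone, 7534 of 15685 genes (48%) passed the adjusted p, 3681 higher (23.5%) and 3853 lower (24.6%), and 86 (0.548%) were DEGs, 53 higher (0.338%) and 33 lower (0.21%). The number of DEGs fell to 47 without sh#16 replicate 2, the deepest library, and to 48 without sh#87 replicate 2. The letters GACAAGATA, from the site that EVI1 is known to bind with its first zinc finger domain, stood on either strand in 0 of 743 promoters of genes that were higher, in 0 of 1228 promoters of genes that were lower, in 0.0289% of those of all genes tested and in 0.1099% of all promoters. With 3 matches among the 10373 promoters of genes tested, the letters are too rare for these counts to tell the sets apart. Of the 74 DEGs, 59 stayed under a mean of 5 CPM in both knockdowns, as the plot of differences against levels shows.

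**Figure D1:**
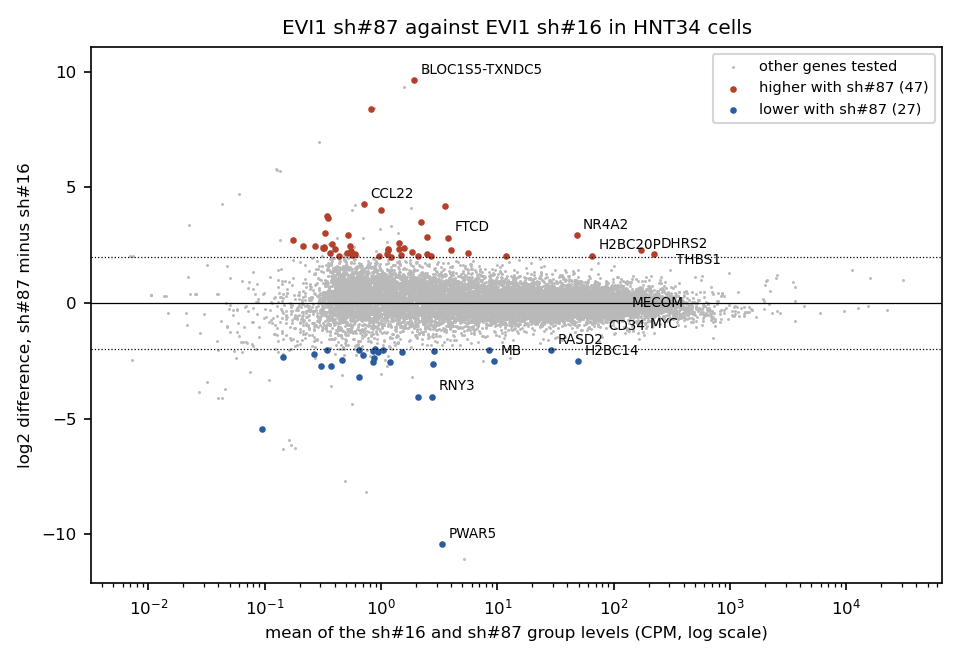
Each point is 1 of the 16312 genes tested, with the mean of the sh#16 and sh#87 levels in CPM on a log axis and the log2 difference (sh#87 minus sh#16) on the vertical axis. The 47 red and 27 blue points are the DEGs, dotted lines mark log2 differences of 2 and -2, and NR4A2, DHRS2, H2BC20P and H2BC14 stand out among the more abundant genes.

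Among genes that averaged 5 CPM or more where they were higher, the nuclear receptor NR4A2 had the highest difference apart from 1 transcript known only by a clone name. NR4A2 (chr2:156324437-156332721), an immediate early gene of the NR4A family, was at 11.8, 10.5 and 11.2 CPM with sh#16 and at 81.6, 79.7 and 94.5 CPM with sh#87. In NT it was at 8.21, 7.28 and 5.40 CPM, so that it was above NT with both hairpins, by log2 0.68 with sh#16 and 3.62 with sh#87. Its log2 difference was 2.94 (SE 0.15, adjusted p = 1.68e-05). DHRS2, a short-chain dehydrogenase of the SDR family, was at 81.7, 82.1 and 83.9 CPM with sh#16 and at 349, 367 and 366 CPM with sh#87, a 4.37-fold difference (log2 2.13, SE 0.06, adjusted p = 1.05e-06). NT held only 1.21 to 1.46 CPM, so the groups formed steps. VAMP1, a vesicle SNARE protein, was graded in the same order, from 14.1 to 16.2 CPM in NT to 44.9 to 52.8 CPM with sh#16 and 138 to 160.5 CPM with sh#87 (log2 difference 1.61, SE 0.09, adjusted p = 3.34e-05). FTCD, an enzyme that links histidine breakdown to folate, was at 0.883 to 0.973 CPM with sh#16 and 6.35 to 6.90 CPM with sh#87, while NT held 0 counts in all but 1 library (log2 difference 2.82, adjusted p = 6.12e-05). DNAAF1, a dynein arm assembly factor of cilia, had log2 2.29 and was at 0 in NT. RNF213-AS1, an antisense transcript, and IQCN had log2 differences of 2.14 and 2.04. XIST, the noncoding RNA of X inactivation, had a log2 difference of 2.30 (adjusted p = 3.67e-06) and was below NT with both hairpins, by log2 -4.14 with sh#16 and -1.85 with sh#87.

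The lowest differences by the same rule belonged to a noncoding transcript, a histone gene described further on, MB, a small RNA, RASD2 and a readthrough transcript. PWAR5, a noncoding transcript of the imprinted Prader-Willi region (chr15:24984860-24988232), was at 4.74, 6.14 and 9.31 CPM with sh#16, at 12.5 to 21.0 CPM in NT and at 0 counts in all 3 sh#87 libraries. Against the limit of 3 counts in a library it was at least 44.1-fold lower (adjusted p = 0.000278). SNRPN, from the same region and chosen after its values were seen, differed by log2 -0.60. MB, which encodes the oxygen store myoglobin, was at 16.4, 15.5 and 15.8 CPM with sh#16 and at 2.25, 2.99 and 3.10 CPM with sh#87. NT (14.9 to 17.3 CPM) overlapped the sh#16 libraries, and the log2 difference between the knockdowns was -2.52 (SE 0.13, adjusted p = 1.82e-05). RASD2, a small G protein, was at 45.4 to 48.0 CPM with sh#16 and 10.5 to 11.8 CPM with sh#87, both above the 1.95 to 2.23 CPM of NT (log2 -2.04, SE 0.08, adjusted p = 7.17e-06). RNY3, a small Y RNA, and the readthrough transcript RPS10-NUDT3 also met the rule, with log2 differences of -4.05 and -2.01, but their calls were lost in 9 and 6 of 20 alternative settings. Reads of RPS10-NUDT3 can be shared with RPS10 (log2 -0.77) and NUDT3 (log2 -0.29, adjusted p = 0.0115), so its value is uncertain. Another readthrough, BLOC1S5-TXNDC5, had 91, 100 and 64 counts with sh#87 and none elsewhere, at least 23.3-fold higher than with sh#16, whereas TXNDC5 itself was lower (log2 -0.88). RPS10, NUDT3 and this pair were also chosen after their values were seen.

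**Figure D2:**
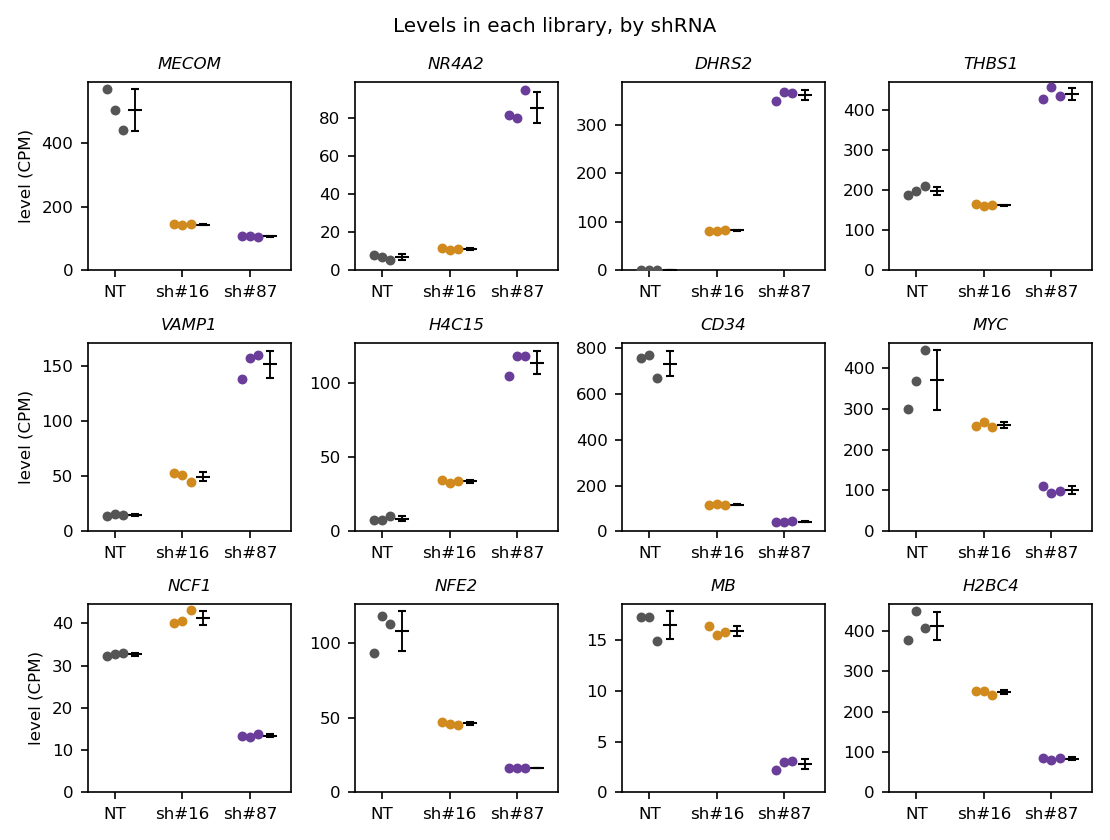
Levels in CPM of 12 genes in each library (points), with the mean and SD of the 3 libraries of a group beside them, every vertical axis starting at 0. NR4A2, DHRS2, VAMP1 and H4C15 rise from NT through sh#16 to sh#87, NR4A2 mostly in the last step. MECOM, CD34, MYC, NFE2 and H2BC4 fall in the same order, and MB and NCF1 are low in the sh#87 libraries.

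Of the 41 lists, the replication-dependent histones held the most genes that were lower with sh#87. Their proteins package newly made DNA, and their mRNAs are made in S phase and mostly end in a stem loop without a polyA tail, so polyA-selected libraries sample a part of them. Of 58 members tested, 32 were lower (55.2%) and 2 were higher with sh#87, and the median log2 difference was -0.79. Against NT the list median was 0.98 with sh#16 and 0.05 with sh#87, so the list as a whole lay near NT with sh#87. Its summed level was 15619 to 16809 CPM with sh#16, 8982 to 11046 CPM with sh#87 and 8694 to 10688 CPM in NT. Single members such as H2BC4 differed from this. By family, 12 of 15 H2B, 8 of 15 H2A, 7 of 12 H4, 3 of 5 H1 and 2 of 11 H3 genes were lower. H2BC4 was at 250, 251 and 242 CPM with sh#16 and at 86.2, 79.1 and 84.3 CPM with sh#87, below the 378 to 449 CPM of NT (log2 -1.57, SE 0.08, adjusted p = 1.38e-05). H2BC14 was at 75.2, 89.2 and 87.3 CPM against 19.9, 11.98 and 11.6 CPM (log2 -2.53, SE 0.28, adjusted p = 0.000406). H2BC10 had log2 -1.99, H2AC16 -1.64 and H2AC21 -1.39. In the other direction, H4C15 was at 34.6, 32.7 and 34.2 CPM with sh#16 and at 105, 118 and 118 CPM with sh#87 (log2 1.75, SE 0.12, adjusted p = 6.12e-05), with 7.53 to 10.4 CPM in NT. The other member that was higher was H2BC6 (log2 1.23), whose call was lost in 5 of 20 settings. H2BC20P, a transcribed H2B pseudogene that is not in the list, was at 23.7 to 26.3 CPM with sh#16 and 103 to 106 CPM with sh#87 (log2 2.05). The lower genes lay in both clusters, 29 of 47 on chromosome 6 and 3 of 11 on chromosome 1. Histone genes are near-identical copies, so single values are uncertain where reads fit several of them.

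The promoters of the histone genes share letters that the list did not use. An octamer, ATTTGCAT on either strand, is known as a binding site of POU factors in H2B promoters. It was found in 12 of 15 H2B, 10 of 14 H2A, 1 of 9 H3, 0 of 10 H4 and 0 of 5 H1 promoters that RefSeq (GRCh38.p14) provides for 53 of the 58 genes, taken from 250 bases before to 50 bases after the start. Of the 29 lower genes with a promoter, 17 held it (58.6%), against 23 of the 53 histone promoters (43.4%), whether called or not. Its share was 1.51% in the promoters of all genes tested and 1.80% in all 27305 promoters of this length. CCAAT was present in 45 of the 53 promoters (84.9%) and in 35.7% of all, and TATAAA in 36 (67.9%) and in 11.95% of all. A match describes the letters only. The octamer stands in capitals in the following 30 bases of each named histone gene that holds it, 5′ to 3′ on the strand of the gene, because the genes that moved in opposite directions share it. H2BC6 was higher and the genes before it were lower with sh#87, and H4C15, also higher, has no match.
H2BC4 (chr6:26124031-26124060, minus strand): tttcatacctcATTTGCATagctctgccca
H2BC14 (chr6:27814963-27814992, plus strand): ttctactcctaATTTGCATaataacattta
H2BC10 (chr6:26272875-26272904, plus strand): cagccagcctcATTTGCATatacacgaggt
H2AC16 (chr6:27865100-27865129, plus strand): cacgaattcttATGCAAATgaggtgattaa
H2AC21 (chr1:149888155-149888184, minus strand): aagatcctggcATGCAAATaaggggcttta
H2BC6 (chr6:26183642-26183671, plus strand): taagctccttcATTTGCATgcagacttcac

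Cell cycle genes differed by list. Of 38 mitosis genes, 15 were lower and 0 were higher (median -0.44). CDK1, the kinase that starts mitosis, was at 98.8, 94.1 and 102 CPM with sh#16 and at 58.8, 61.4 and 60.2 CPM with sh#87, with NT between them at 64.7 to 68.8 CPM (log2 -0.71, SE 0.06, adjusted p = 0.000131). UBE2C, a ubiquitin-conjugating enzyme of the anaphase promoting complex, was at 12.8 to 14.2 CPM against 6.81 to 7.57 CPM (log2 -0.93). CCNB1 and AURKA, chosen after their values were seen, had log2 -0.74 and -0.66. Of 42 DNA replication genes, 9 were lower and 3 were higher (median -0.19). TYMS, which makes thymidylate, was at 117 to 125 CPM against 67.0 to 75.9 CPM (log2 -0.79, SE 0.07, adjusted p = 0.000154), and RFC3, a clamp loader subunit, had log2 -0.46. The members that were higher included POLE, the leading strand polymerase (log2 0.64), and ORC6 (log2 0.44), with calls lost in 5 and 6 of 20 settings. Among 20 G1 cyclins, CDKs and CDK inhibitors, 2 were lower (10%) and 1 was higher (5%), close to the shares over all genes (median -0.15). CCND2, a D cyclin, had log2 -0.51 and CDK6 -0.34, while the inhibitor CDKN1B had log2 0.29, and the calls of CDK6 and CDKN1B were lost in 11 and 8 settings.

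MYC itself was among the abundant genes with the lowest differences. It was at 256, 267 and 256 CPM with sh#16, at 111, 93.1 and 98.4 CPM with sh#87 and at 299 to 444 CPM in NT, with no overlap between the groups. The log2 difference was -1.36 (SE 0.13, adjusted p = 0.000235) and the call held in all 20 alternative settings. Of 12 genes of the MYC and MAX network, MYC and MYCN (log2 -0.69) were lower and MLXIP (log2 0.59), a glucose-sensing partner of the network, was higher, with a median of -0.02. MYCN and MLXIP lost their calls in 9 and 8 settings. Of 27 metabolic genes known as MYC targets, 15 were lower (55.6%) and 1 was higher, with a median of -0.42. APEX1, a DNA repair endonuclease, was at 117 to 118 CPM with sh#16 and at 62.3 to 72.6 CPM with sh#87 (log2 -0.81, SE 0.08, adjusted p = 0.000182). ATIC, a purine synthesis enzyme, had log2 -0.65, and ODC1, the rate-limiting enzyme of polyamine synthesis, was the member that was higher (log2 0.45, call lost in 5 settings). The E-box CACGTG, which MYC with MAX is known to bind, stood in the promoters of 10 of the 24 members that RefSeq provides (41.7%). Among the 14 lower members it stood in 7 (50%). Its share was 10.02% in the promoters of all genes tested and 7.43% in all promoters. The list was chosen for known MYC targets. Over all called genes the E-box stood in 119 of 1228 promoters of lower genes (9.69%) and in 66 of 743 of higher ones (8.88%). It is printed in capitals in 30 bases for the named members that were lower, again 5′ to 3′, to show what these promoters share, and the promoter of ODC1 has no match.
APEX1 (chr14:20455109-20455138, plus strand): aagcgtctccgtCACGTGgtgtcagacaga
ATIC (chr2:215312001-215312030, plus strand): gggccggcgggcCACGTGataagcccggaa
HSPE1 (chr2:197500345-197500374, plus strand): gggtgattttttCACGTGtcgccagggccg

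In the lists of protein and nucleotide synthesis, more members were lower than higher with sh#87. Of 84 cytosolic ribosomal protein genes, 20 were lower (23.8%) and 0 were higher, with a median of -0.43 and a negative log2 difference in 83. RPL6 was at 857 to 885 CPM with sh#16 and at 482 to 582 CPM with sh#87 (log2 -0.71, SE 0.08, adjusted p = 0.000444), and RPL41 had log2 -0.81. Ribosomal protein genes have many processed pseudogenes, which can take a share of their reads. With the 6 knockdown libraries alone, 72 of the 84 were lower. Of 40 nucleolar ribosome biogenesis factors, 7 were lower and 0 were higher (median -0.30), among them DKC1, the pseudouridine synthase of box H/ACA particles (log2 -0.65), and NOB1, a nuclease of the small subunit (log2 -0.46). Of 41 translation factors, 10 were lower and 0 were higher (median -0.26), such as the scaffold EIF4G1 (log2 -0.66), whose call was lost in 3 settings, and EEF1E1 (log2 -0.75), whose call was lost in 1. Among 20 aminoacyl-tRNA synthetases, 4 were lower and 2 were higher (median -0.16): KARS1 had log2 -0.55, while CARS1 had 0.38 and HARS1 0.27, the latter pair with calls lost in 8 settings each. Of 28 genes of nucleotide and folate synthesis, 15 were lower (53.6%) and 0 were higher (median -0.34). PRPS2, which makes phosphoribosyl pyrophosphate, was at 57.8 to 61.5 CPM with sh#16 and at 31.6 to 36.9 CPM with sh#87 (log2 -0.82, SE 0.07, adjusted p = 0.000169).

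Among the mitochondrial lists, nearly all nuclear genes that were called were lower, and the mitochondrially encoded ones that were called were higher. Of 83 nuclear genes of oxidative phosphorylation, 20 were lower (24.1%) and 0 were higher, with a median of -0.46. ATP5MF, a subunit of ATP synthase, was at 40.0 to 44.8 CPM with sh#16 and at 17.3 to 19.4 CPM with sh#87 (log2 -1.20, SE 0.13, adjusted p = 0.000306), and ATP5PB had log2 -0.63. Of 78 mitochondrial ribosomal proteins, 20 were lower and 1 was higher (median -0.33). MRPL15 had log2 -0.82 and MRPS35 -0.61, while MRPS25 was higher (log2 0.40). The 15 mitochondrially encoded genes had a median of 0.97, with 2 higher and 0 lower in the 9-library fit and 12 higher with the 6 knockdown libraries alone. MT-ND6, a subunit of complex I, was at 37.2, 44.4 and 38.2 CPM with sh#16 and at 86.0, 80.7 and 85.3 CPM with sh#87 (log2 1.07, SE 0.17, adjusted p = 0.00194), still below the 113 to 190 CPM of NT. MT-CO1 had the same log2 difference of 1.07, and their calls were lost in 2 and 9 settings. Removal of the mitochondrially encoded genes before scaling left 72 DEGs, and the median of the nuclear oxidative phosphorylation genes was -0.45 then.

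**Figure D3:**
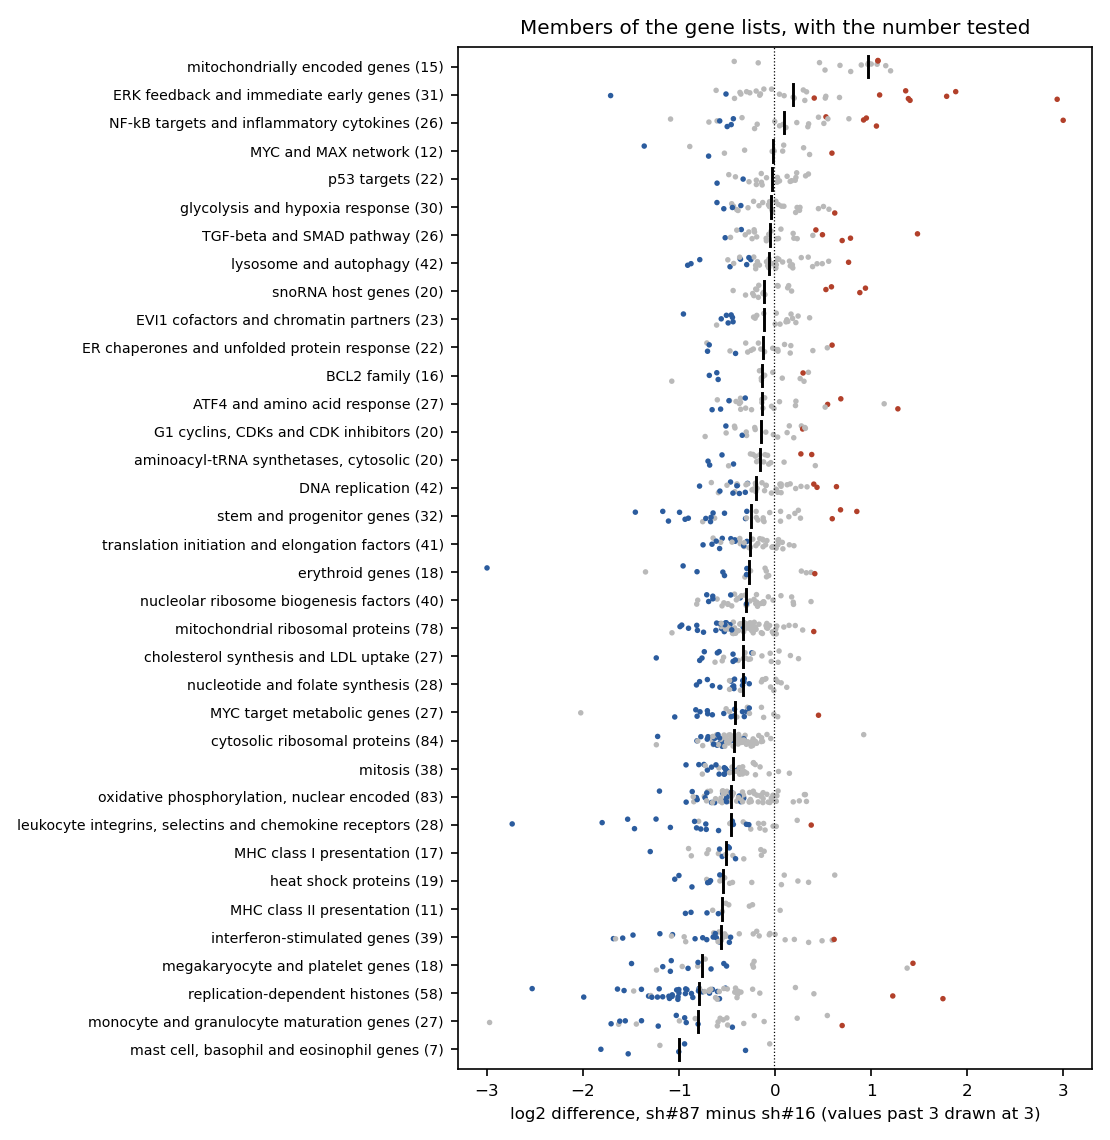
Log2 difference (sh#87 minus sh#16) of every tested member of 36 lists (the RNA interference, structural small RNA and marker lists are not drawn), with the number tested in brackets, red for members called higher, blue for members called lower (adjusted p up to 0.01) and grey for the rest. Black bars are list medians and the dotted line is the median of all genes, -0.02; CCL22 (4.27) and GATA1 (-3.21) are drawn at the edge, and 3 lists have medians above the dotted line, led by mitochondrially encoded genes at 0.97, while histone, myeloid and mast cell genes lie lowest.

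The immediate early genes had more members that were higher than any other list. These genes are switched on within minutes of a signal, most of them through ERK and serum response factor. Of 31 members, 8 were higher (25.8%) and 2 were lower, with a median of 0.19. All 3 NR4A receptors were called: NR4A1 was at 6.94, 5.77 and 7.07 CPM with sh#16, at 23.7, 25.2 and 23.5 CPM with sh#87 and below 1 CPM in NT (log2 1.88, SE 0.13, adjusted p = 6.12e-05), and NR4A3 had log2 1.79. Of the others, chosen after their values were seen, the AP-1 subunits FOS and FOSB had log2 1.09 and 1.39, the zinc finger factor EGR1 1.36 and the phosphatase DUSP1 1.41. FOSB lost its call in 2 settings. EGR1 was at 3.999 to 5.46 CPM with sh#16, below NT (7.44 to 10.2 CPM), and at 11.3 to 13.3 CPM with sh#87, above NT. The lower members were KLF2, a quiescence factor that was at 8.75 to 9.27 CPM with sh#16 and 2.01 to 3.29 CPM with sh#87 (log2 -1.71, SE 0.24, adjusted p = 0.00109), and the ERK phosphatase DUSP4 (log2 -0.51, call lost in 7 settings).

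Signalling lists next to it were mixed. Of 26 NF-kB targets and cytokines, 5 were higher and 4 were lower (median 0.10). CXCL8, a neutrophil chemokine, was at 14.4, 15.5 and 17.3 CPM with sh#16 and at 30.3, 30.7 and 28.3 CPM with sh#87, with 14.2 to 14.9 CPM in NT (log2 0.92, SE 0.08, adjusted p = 0.000182). CCL22, a chemokine for T cells, had 1, 4 and 1 counts with sh#16 and 32, 30 and 28 with sh#87, a low level (log2 4.27, adjusted p = 0.000281). NFKB1 and CD83 were lower (log2 -0.46 and -0.58), each with a call lost in 6 settings. Of 26 TGF-beta and SMAD genes, 5 were higher and 2 were lower (median -0.05). ID2, an inhibitor of basic helix-loop-helix factors, was at 64.8 to 66.7 CPM with sh#16, 101 to 114 CPM with sh#87 and 20.1 to 20.8 CPM in NT (log2 0.70, SE 0.07, adjusted p = 0.000182). ID3, chosen after its values were seen, went from below 1 CPM in NT to 33.1 to 34.6 CPM with sh#16 and 90.7 to 96.9 CPM with sh#87 (log2 1.48). SKIL, a repressor of SMADs, was also higher (log2 0.79), and the receptor TGFBR1 and SMAD5 were lower (log2 -0.52 and -0.35), and SMAD5 lost its call in 7 settings.

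Stem and progenitor genes differed in 16 of 32 members, 13 lower (40.6%) and 3 higher, with a median of -0.25. CD34, the surface marker of blood progenitors (chr1:207880972-207911125), was at 116.5, 118 and 114 CPM with sh#16 and at 42.5, 41.2 and 43.5 CPM with sh#87. NT held 757, 769 and 667 CPM, so the groups formed steps, and the log2 difference between the knockdowns was -1.46 (SE 0.07, adjusted p = 1.38e-05). ITGA6, an integrin of stem cells, had log2 -0.72. Blood transcription factors were among the lower members: FLI1 had log2 -1.17, ERG -1.11, LMO2 -0.90 and RUNX1 -0.67, each chosen after its values were seen. GATA2, at 73.8 to 81.5 CPM with sh#16 and 72.7 to 77.2 CPM with sh#87, overlapped between the knockdowns (log2 -0.06, adjusted p = 0.802). The HOX genes HOXA5 and HOXB3 were higher. HOXB3 was at 45.6 to 47.5 CPM with sh#16 and at 74.1 to 75.6 CPM with sh#87, on either side of NT at 50.7 to 60.0 CPM (log2 0.68, SE 0.07, adjusted p = 0.000325), and HOXA5 had log2 0.85.

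In each list of lineage genes, more members were lower than higher with sh#87, and others were not called. Of 27 monocyte and granulocyte maturation genes, 10 were lower (37%) and 1 was higher, with a median of -0.80. NCF1, a subunit of the phagocyte NADPH oxidase, was at 40.1, 40.6 and 43.2 CPM with sh#16 and at 13.4, 13.1 and 13.8 CPM with sh#87, and NT at 32.3 to 33.0 CPM lay between them (log2 -1.62, SE 0.07, adjusted p = 7.17e-06). CSF2RB, the shared receptor chain for IL-3, IL-5 and GM-CSF, had log2 -0.94, and the member that was higher was ID2. Of 18 megakaryocyte and platelet genes, 9 were lower (50%) and 1 was higher (median -0.77). NFE2, a factor for platelet release, was at 45.1 to 47.3 CPM with sh#16, 16.1 to 16.6 CPM with sh#87 and 92.9 to 118 CPM in NT (log2 -1.50, SE 0.09, adjusted p = 4.46e-05), and PLEK, a platelet kinase substrate, had log2 -1.08. THBS1, a platelet glycoprotein that also lies in the matrix, went the other way, from 165, 162.04 and 162.4 CPM with sh#16 to 429, 458 and 437 CPM with sh#87, on either side of the 189 to 210 CPM of NT (log2 1.44, SE 0.06, adjusted p = 7.17e-06).

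Of 18 erythroid genes, 7 were lower and 1 was higher (median -0.27). GATA1, the master factor of red cells, was rare, with 22, 57 and 25 counts with sh#16 and 2, 4 and 2 with sh#87 (log2 -3.21, adjusted p = 0.00236, call lost in 5 settings). GYPC, a red cell membrane protein, had log2 -0.81 and FECH, the last enzyme of heme synthesis, -0.54, while the iron carrier SLC25A37 had 0.41, and these calls were lost in 2, 4 and 6 settings. Of 7 mast cell, basophil and eosinophil genes, 5 were lower and 0 were higher (median -1.0). SIGLEC6, a sialic acid receptor, was at 39.3 to 41.1 CPM with sh#16 and at 18.6 to 21.0 CPM with sh#87 (log2 -1.0, SE 0.07, adjusted p = 7.38e-05), and IL1RL1, the IL-33 receptor, had log2 -1.53 at about 1 CPM with sh#16 (call lost in 5 settings). Of 28 leukocyte integrins, selectins and chemokine receptors, 16 were lower (57.1%) and 1 was higher (median -0.46). CX3CR1 was at 16.0 to 17.5 CPM with sh#16 and at 5.36 to 6.12 CPM with sh#87, while NT (14.6 to 16.8 CPM) overlapped sh#16 (log2 -1.54, SE 0.10, adjusted p = 4.46e-05). CCR1 had log2 -1.80, and the collagen receptor subunit ITGA2 was the member that was higher (log2 0.38, call lost in 7 settings).

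In the interferon and antigen presentation lists, more members were lower than higher, and most members were not called. Of 39 interferon-stimulated genes, 14 were lower (35.9%) and 1 was higher, with a median of -0.56. IFITM3, a block to virus entry, was at 71.4, 75.6 and 66.8 CPM with sh#16 and at 29.1, 22.3 and 25.2 CPM with sh#87, with 149 to 193 CPM in NT (log2 -1.48, SE 0.13, adjusted p = 0.000141), and IFITM2 had log2 -1.59. STAT2, a subunit of the interferon-activated factor, was higher (log2 0.61, SE 0.08, adjusted p = 0.00096). Of 17 MHC class I genes, 6 were lower and 0 were higher (median -0.52), such as ERAP1, which trims peptides (log2 -0.58), and the chaperone CANX (log2 -0.41). Of 11 MHC class II genes, 4 were lower and 0 were higher (median -0.55). Against NT the median of this list was 0.18 with sh#16 and -0.47 with sh#87. HLA-DRA was at 64.5 to 67.6 CPM with sh#16, 33.2 to 36.5 CPM with sh#87 and 103 to 124 CPM in NT (log2 -0.93, SE 0.09, adjusted p = 0.000183), and the protease CTSS had log2 -0.88.

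Of 19 heat shock proteins, 7 were lower and 0 were higher (median -0.55), with HSPE1, the partner of HSP60, at 62.0 to 68.9 CPM with sh#16 and 28.2 to 35.6 CPM with sh#87 (log2 -1.05, SE 0.10, adjusted p = 0.000237), and the cochaperone FKBP4 at log2 -0.87. Of 27 genes of cholesterol synthesis and LDL uptake, 10 were lower and 0 were higher (median -0.33), with the desaturases FADS2 (log2 -1.24) and SCD (log2 -0.76). Of 27 ATF4 and amino acid response genes, 4 were lower and 3 were higher (median -0.14). DDIT3, a stress factor also called CHOP, was at 2.77 to 3.29 CPM with sh#16, 5.78 to 7.82 CPM with sh#87 and 30.4 to 36.0 CPM in NT (log2 1.28, SE 0.15, adjusted p = 0.000417), SLC7A11 had log2 0.55, and CBS and SLC7A1 had log2 -0.66 and -0.48. Calls of the last 3 genes were lost in 11, 5 and 6 settings. Of 22 ER chaperone and unfolded protein response genes, 3 were lower and 1 was higher (median -0.13). The sensor ERN1 was higher (log2 0.59, call lost in 2 settings) and XBP1, whose mRNA it splices, was lower (log2 -0.70, SE 0.06, adjusted p = 0.000141).

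Of 42 lysosome and autophagy genes, 8 were lower and 1 was higher (median -0.06), with CTSH and CD63 at log2 -0.91 and -0.78 and the sialidase NEU1 at 0.77. Of 30 glycolysis and hypoxia genes, 4 were lower and 1 was higher (median -0.04): PFKP had log2 -0.61, P4HA1 -0.44 and VEGFA 0.62, with the calls of PFKP and P4HA1 lost in 1 and 5 settings. Of 16 BCL2 family genes, 3 were lower and 1 was higher (median -0.13). BCL2, which holds back apoptosis, was at 122 to 129 CPM with sh#16, 75.1 to 80.3 CPM with sh#87 and 233 to 276 CPM in NT (log2 -0.69, SE 0.07, adjusted p = 0.000329), BID had log2 -0.59, and MCL1 was higher (log2 0.29), the latter pair with calls lost in 7 and 8 settings. Of 22 p53 targets, 2 were lower (9.09%), close to the 9.42% of all genes, and 0 were higher (median -0.03). BTG2 had log2 -0.60 and MDM2 -0.33, with calls lost in 4 and 7 settings, and CDKN1A had 0.12 (adjusted p = 0.746). Of 23 EVI1 cofactors and chromatin partners, 7 were lower and 0 were higher (median -0.12), with the demethylase KDM1A at log2 -0.44 and the DNA methyltransferase DNMT3B at -0.49. None of the 9 genes of the RNA interference machinery was called by edgeR's test, DESeq2 or limma-voom (median 0.08), 1 had an unadjusted p under 0.05, and 3 were higher when the 6 knockdown libraries were fitted alone.

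Long noncoding RNAs, pseudogenes and genes without a RefSeq entry were higher with sh#87 more often than they were lower. By RefSeq class, 131 of 908 lncRNAs (14.4%) were higher and 27 (2.97%) were lower, with a median of 0.23. Pseudogenes had 137 of 1004 higher (13.6%) and 14 lower (1.39%), with a median of 0.31. Of 11974 protein-coding genes, 795 (6.64%) were higher and 1477 (12.3%) were lower, with a median of -0.09. Genes without a RefSeq entry, most of them clone names, had a median of 0.42, with 289 of 2287 higher (12.6%) and 12 lower (0.525%). The remaining 139 genes of other RefSeq classes had 1 higher (0.719%) and 7 lower (5.04%), with a median of -0.39. The nuclear RNAs NEAT1 and MALAT1, chosen after their values were seen, were the most abundant lncRNAs that were higher. NEAT1, the scaffold of paraspeckles, took 0.627% to 0.644% of the counts with sh#16, 1.64% to 1.81% with sh#87 and 0.0517% to 0.0593% in NT (log2 1.44, SE 0.09, adjusted p = 4.28e-05). MALAT1, of nuclear speckles, took 2.17% to 2.22%, 4.34% to 4.49% and 0.538% to 0.767% (log2 1.0, SE 0.18, adjusted p = 0.00335, call lost in 6 settings). Whether the share of nuclear RNA in a library has a part in these class differences was not tested.

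Of 20 snoRNA host genes, 4 were higher (20%) and 0 were lower, with a median of -0.11. SNHG1 was at 176, 168 and 174 CPM with sh#16 and at 305, 334 and 315 CPM with sh#87, on either side of NT at 207 to 246 CPM (log2 0.88, SE 0.08, adjusted p = 0.000141), and SNHG3 had log2 0.94. GAS5, the host best known as a marker of growth arrest and chosen after its values were seen, overlapped between the knockdowns (log2 0.03, adjusted p = 0.788). Of 157 structural small RNA genes, 6 were higher and 4 were lower (median -0.28). RN7SL146P and RN7SL558P, pseudogenes of the signal recognition particle RNA, had log2 2.17 and 1.60, and RNU6ATAC, of the minor spliceosome, had -2.07, with the calls of RN7SL558P and RNU6ATAC lost in 6 settings each. Such short RNAs are caught poorly by polyA selection as a rule, yet the list took a large share of these libraries. It summed to 66348 to 75826 CPM with sh#16, 55653 to 68742 CPM with sh#87 and 42183 to 61921 CPM in NT. RN7SL146P, RN7SL558P and RNU6ATAC stayed below 2 CPM in every library. Gene length moved with the difference: the median log2 difference was -0.14 in the shortest of 5 bins of genes by length and -0.00032 in the longest, and a correction for length and GC content, added after the data had been seen, moved 20 of the 41 list medians by more than the spread between replicates, reversed 2 and left 19 within it. With it, the medians of the histone and ribosomal protein lists were -0.69 and -0.33.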

How the data were processed

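For 9 RNA-seq libraries the authors deposited 1 table of estimated counts, 1 row per gene symbol and all values whole. The header of the table names a salmon output per library, while the study's methods name STAR gene counts on GRCh38, and how genes were summed is not given in the sources used here. Header names stand 1 column to the left of their values and were shifted accordingly. Groups follow the sample titles.

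All 16612 genes were read and filterByExpr left 16312. A 3-group model was fitted to all 9 libraries with edgeR 4.0.16 (TMM, quasi-likelihood test, Benjamini-Hochberg adjustment over all genes tested) in R 4.3.3, and the contrast was sh#87 minus sh#16. DEGs had an adjusted p up to 0.01 and a log2 difference of 2 or more in size, and adjusted p-values in the text without a named tool are from this test. The SE is derived from the same test, as the size of the log2 difference divided by the square root of the F statistic. The code was tested on simulated data. Alternatives were DESeq2 1.42.0, limma-voom (limma 3.58.1), other scalings and filters, the 6 knockdown libraries alone, the replicate number as a block, no mitochondrially encoded genes and each library left out. Together these made 20 settings per gene with a length and GC correction, which was chosen after seeing the data. Depth of 17096170 to 43502389 counts limits genes of few counts, and the limit of 3 counts covers counting error only.

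The comparison and the 41 gene lists were chosen with earlier results of these data known. Genes were named by rule: MECOM, the 10 highest and 10 lowest DEGs of at least 5 CPM without overlap and without a clone name, the 5 highest and 5 lowest genes of at least 100 CPM that passed the adjusted p, and in each list the 2 members with the smallest adjusted p in each direction. Other genes were chosen after their values were seen, and 1 gene that the rule names is not reported here. Fewer than 10 genes met the DEG rule in either direction. Gene classes, coordinates and promoters (250 bases before to 50 after the start) are from RefSeq on GRCh38.p14. Classes and coordinates were matched by symbol or a unique synonym for 14025 genes, and promoters by symbol. Length and GC content are those of 1 transcript per gene, the canonical or else the longest. They are from a GENCODE set lifted to the previous genome build, for 13854 genes (84.9%). Motifs were searched on both strands as exact letters. Figures were drawn with matplotlib 3.10.9 in Python 3.11.15. The sequences of the hairpins were not used here.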

Additional observations from a re-analysis of the deposited data

Results flagged for a closer look

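For 13 of the genes named by the rule the knockdowns lay on opposite sides of all 3 NT libraries, as they did for EGR1 (log2 difference 1.36), which was chosen after its values were seen. The difference between the knockdowns was tested directly by edgeR's quasi-likelihood test, and the comparison of each with NT shares the NT libraries. Higher than NT with sh#87 and lower with sh#16 were H2BC20P (log2 difference 2.05, sh#87 minus sh#16), THBS1 (1.44), SNHG3 (0.94), SNHG1 (0.88), HOXA5 (0.85) and HOXB3 (0.68). Lower than NT with sh#87 and higher with sh#16 were RNU6ATAC (-2.07), NCF1 (-1.62), CTSH (-0.91), CDK1 (-0.71), XBP1 (-0.70), RFC3 (-0.46) and SMAD5 (-0.35). Among all genes tested, 186 had the knockdowns on opposite sides of NT. RNU6ATAC stayed below 2 CPM in every library and lost its call in 6 of 20 settings, SMAD5 lost it in 7 and RFC3 in 1.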

How the results depend on the processing

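The 74 DEGs became 47 to 86 when 1 library was left out, lowest without sh#16 replicate 2 and highest without NT replicate 3, and 697 genes passed with an absolute log2 difference of 1. The 2890 genes past the adjusted p of 0.01 became 1098 to 5326, lowest and highest without the same libraries. Removal of sh#16 replicate 1 or 3 left 1198 and 1185, of sh#87 replicate 1, 2 or 3 left 1638, 1154 and 1237, and of NT replicate 1 left 4631. The 6 knockdown libraries alone gave 7534, and an adjusted p of 0.05 gave 5498. The MECOM difference lost its call with RLE scaling (-0.42), upper-quartile scaling (-0.41) and the replicate block (-0.43), and ranged from -0.44 to -0.42 without 1 library.

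Replicate numbers did not pair the libraries, with correlations of -0.184, -0.0765 and -0.133 between the deviations of same-numbered libraries. The replicate block gave 52 DEGs and 1588 genes past the adjusted p, and 5957 with the 6 knockdown libraries alone.

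The median of the p53 targets changed sign without sh#87 replicate 1 (0.0046, against -0.061 at the lowest without another library) and with the length and GC correction (0.039). The median of the 4 epithelial and stromal markers was -0.0078 without sh#16 replicate 3, up to 0.046 without another library, -0.10 with the 6 knockdown libraries alone, -0.097 with these and the replicate block, and -0.051 with the length and GC correction. The causes were not tested. No named gene changed direction, in 2128 comparisons with an alternative that kept the call and 228 that lost it.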
